A study of Mus musculus with 23 samples.

Results

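Control wounds of day 10 were compared with intact control skin of day 0, 3 libraries against 3, over all autosomal genes of the count table. The members were the 6 libraries with these labels out of 23 in the series, and 21539 of the 46577 autosomal genes in the table had enough counts to be tested. All mice carried HTNF ki/ki and Lepr db/db, that is, an allele labelled HTNF and loss of the leptin receptor, and were 8 to 12 weeks old. After shaving and depilation, 4 wounds that passed through the panniculus carnosus, the thin muscle under mouse skin, were made on the back with a 6 mm punch. Wounded controls received a single dose of tramadol and the PBS vehicle by injection under the skin, and tissue was taken on the named day with an 8 mm punch centred on the wound, which also removes a rim of unwounded edge. The 2 groups were different animals, and the library names belong to different numbering series. The question was which genes of intact skin were still low on day 10 and which wound genes were still high.

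A full-thickness wound is first filled with clotted matrix and inflammatory cells, then with granulation tissue, in which fibroblasts lay down collagen and new vessels grow, while keratinocytes migrate in from the edge and from hair follicles. Fat, muscle, sebaceous glands and hair follicles lie below or within the dermis and are removed by such a wound. Animals without a working leptin receptor are obese and diabetic and heal slowly.

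The 6 libraries held 33080930 to 37480787 counts, and mitochondrial genes took 8.66% to 16.7% of them in intact skin and 7.11% to 18.1% in day 10 wounds. The 3 day 0 libraries held 25177 to 34055 counts of Xist, which marks female cells, and 0 of the Y-linked Ddx3y, whereas the day 10 libraries held 0 to 9 of Xist and 3186 to 4691 of Ddx3y. By these markers females were compared with males, and time, sex and library series cannot be told apart within these 6 libraries. Day 0 replicate 2 stood apart from the other intact samples: the immediate early gene Egr1 was at 17.5, 316 and 26.3 CPM and the suprabasal keratin Krt77 at 346, 2358 and 608 CPM in replicates 1, 2 and 3. Day 10 replicate 3 stood apart among the wounds, where the cytokine Il6 was at 8.72, 3.43 and 149 CPM. Skin markers were present in every library: Krt5 of basal keratinocytes was at 3155, 2515 and 3630.0 CPM in intact skin and 303, 409.9 and 609 CPM in wounds, and Pdgfra of fibroblasts was at 43.6, 81.8 and 18.7 CPM and at 268, 322 and 278 CPM. CPM is the usual normalised read count, a gene's counts relative to its library's total, here after scaling of library sizes by edgeR's trimmed mean method (TMM), and values are given in the order of replicates 1, 2 and 3. They are not per gene length, so that levels are compared between libraries and not between genes.

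Of the autosomal genes tested, 7503 (34.8%) differed at an adjusted p under 0.05 in edgeR's quasi-likelihood test, 3501 (16.3%) higher and 4002 (18.6%) lower on day 10. The difference was over 3 on the log2 scale, an 8-fold change, for 717 of the higher and 1133 of the lower genes. The median over all autosomal genes was -0.02 and the median SE of a difference 0.41. These shares are the background against which each gene group below is read. With sex as a term in the fit, 517 genes remained called higher and 76 lower. That term rests on 1 library of the other sex, adalimumab day 7 replicate 3. The numbers of calls under each fit are drawn in the bar plot.

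**Figure D1:**
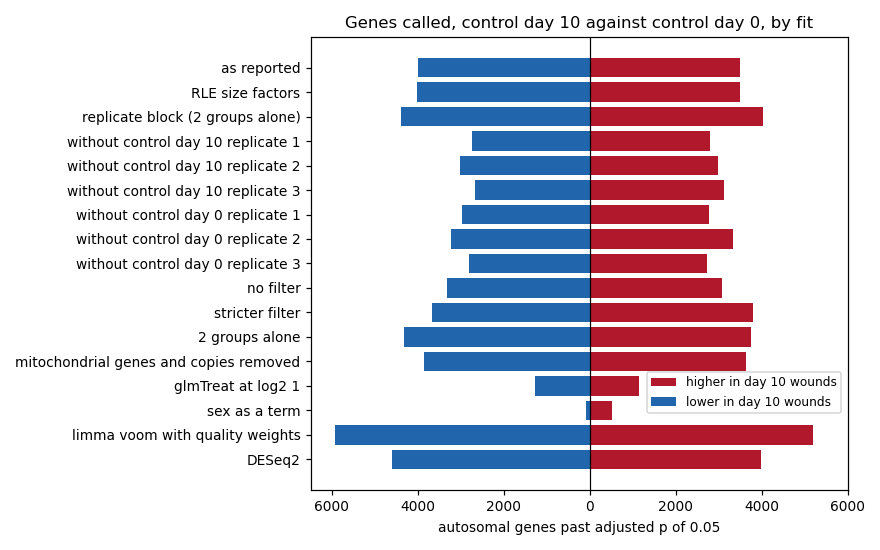
Number of autosomal genes (horizontal axis) past an adjusted p of 0.05 in control day 10 against control day 0, higher to the right and lower to the left, for the fit reported here (top) and each alternative. The fit with sex as a term calls 517 higher and 76 lower.

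Fat cell genes were the most completely lowered group. All 21 adipocyte genes fell (background 18.6%), with a median log2 difference of -5.10. Leptin, Lep, the satiety hormone of fat cells, was at 2045, 2355 and 671 CPM in intact skin and at 23.2, 11.1 and 6.91 CPM in day 10 wounds. The wounds lay far below the lowest intact sample, and the log2 difference was -6.94 ± 2.13 (SE, n = 3 and 3; adjusted p = 0.018). Adiponectin, Adipoq, an insulin-sensitising hormone, went from 837, 651 and 554 to 15.8, 3.13 and 2.88 CPM (-6.55 ± 1.80, adjusted p = 0.01). Adipsin, Cfd, the complement protease made by fat cells, went from 131, 81.3 and 97.3 to 1.83, 0.272 and 0.279 CPM (-7.02 ± 1.29, adjusted p = 0.000678). Within each group the libraries differed less than the groups did.

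The other adipocyte genes covered lipid droplets, lipolysis and fat cell identity. Plin4 (-6.73 ± 1.66), Plin1 (-6.24 ± 1.70) and Cidec (-6.56 ± 1.81) code for droplet coat proteins, and Lipe (-5.08 ± 0.94) and Pnpla2 (-3.60 ± 0.73) for lipases that release fatty acids. Pparg, the master regulator of fat cells, fell by 3.38 ± 0.94. The smallest falls of the list were those of Cebpa (-2.27 ± 0.47), a transcription factor, and Aoc3 (-2.33 ± 0.85), an amine oxidase, the latter not called without day 0 replicate 1 or 2 or any day 10 library (adjusted p = 0.0908 to 0.11). Lipoprotein lipase, Lpl, was at 8049, 6592 and 4599 CPM in intact skin and still at 950.3, 796 and 624 CPM in wounds, a call lost without day 0 replicate 1 or any day 10 library (adjusted p = 0.0557 to 0.0762). Leaving out any 1 of the 6 libraries left 15 to 20 of the 21 called, and Lep lost its call without any day 10 library (adjusted p = 0.0501 to 0.0672). In bulk tissue, fewer cells of a type and less RNA per cell cannot be told apart, here and in every group below.

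Of the 12 largest falls among genes with groups that did not overlap, 6 were on the adipocyte list. Genes whose mean log2 CPM was under 1 were left out. The largest of the 12 was that of Slc7a10, an amino acid transporter of fat cells, at 50.3, 58.1 and 31.1 CPM in intact skin and 0.274, 0.299 and 0 CPM in wounds (-7.88 ± 1.80). It was followed by Pck1 (-7.43 ± 2.17), the first committed enzyme of glyceroneogenesis, whose call was lost without day 10 replicate 2 or 3 (adjusted p = 0.0513 to 0.0537). Lctl (-7.41 ± 1.69), Cfd, Lep, Mstn (-6.80 ± 1.73), Plin4, Ankef1 (-6.62 ± 1.78), Timp4 (-6.61 ± 1.53), Nnat (-6.60 ± 1.31), Cidec and Adipoq completed the 12. Mstn codes for myostatin, the muscle-made brake on muscle growth, and Timp4 for an inhibitor of matrix proteinases. With sex as a term none of the 21 adipocyte genes was called, their median was -2.37, and Pck1 turned in sign (2.11).

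**Figure D2:**
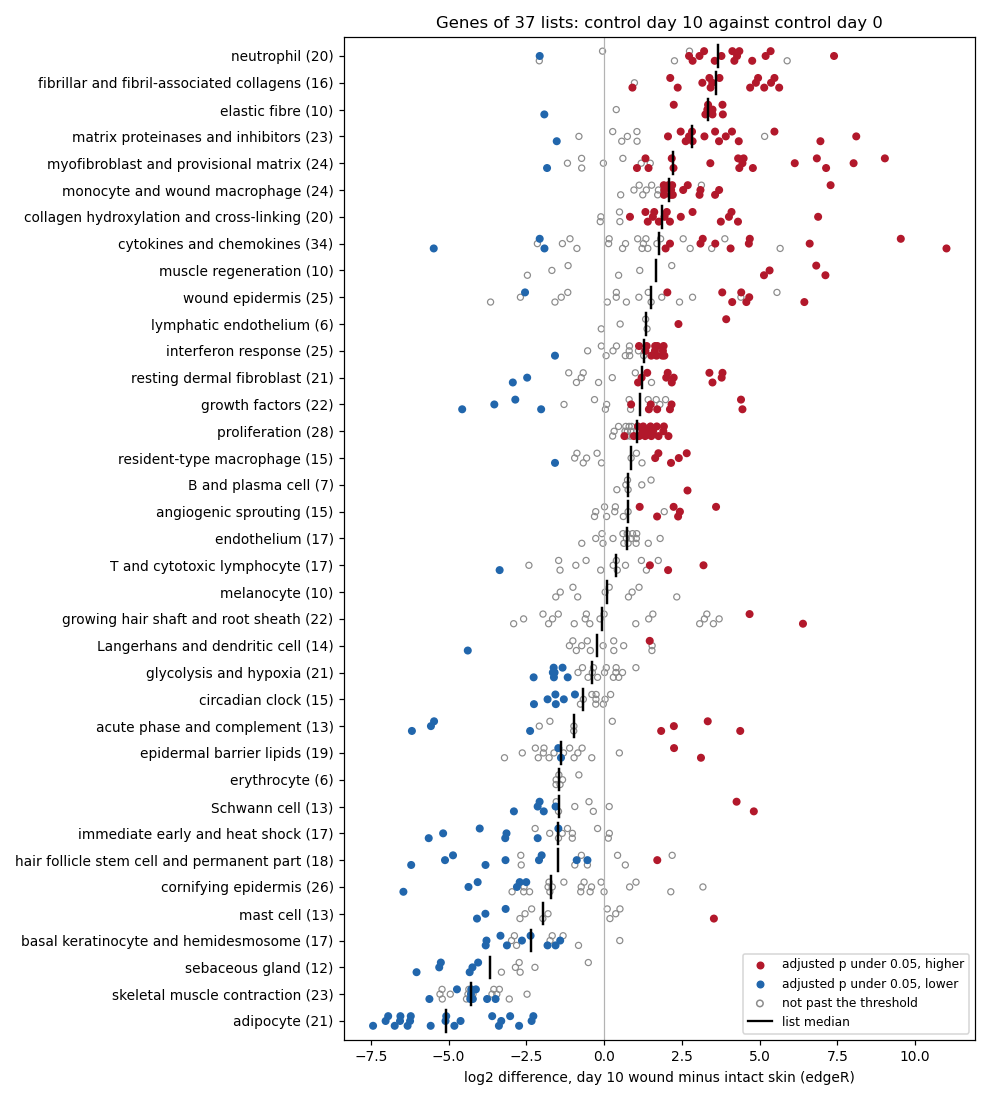
Log2 difference between control day 10 and control day 0 (horizontal axis) of each tested gene of 37 lists, with the number tested in brackets. Filled points passed an adjusted p of 0.05, open points did not, and black bars are list medians, from -5.10 for adipocyte genes to 3.67 for neutrophil genes.

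Skeletal muscle genes, which in a skin punch come from the panniculus carnosus, were low in all wounds. All 23 contraction genes had 3 wound libraries below the 3 intact ones (background 28.0% of autosomal genes), yet 9 passed the test, with a list median of -4.27. Myh4, the myosin of fast glycolytic fibres, was at 7323, 2145 and 8519.6 CPM against 191, 126 and 171 CPM (-5.20 ± 2.32, adjusted p = 0.0895). The groups were far apart, but the fit shares 1 estimate of the spread over all 23 libraries, and in a fit of the 6 libraries alone all 23 genes passed. Among those that passed, Tnni2, a subunit of fast troponin, was at 1077, 447 and 1634 CPM against 74.3, 23.4 and 62.3 CPM (-4.30 ± 1.40, adjusted p = 0.0241). Eno3, the muscle enolase (-3.76 ± 1.13), and Ryr1, the calcium release channel (-4.28 ± 1.43), also fell. Tnni2 lost its call without day 0 replicate 3 or any day 10 library (adjusted p = 0.0602 to 0.0834), Ryr1 without day 0 replicate 3 or any day 10 library (adjusted p = 0.062 to 0.09) and Eno3 without day 10 replicate 2 (adjusted p = 0.0622). Between 0 (without day 10 replicate 2) and 8 calls were left when 1 library was omitted: 4 without day 0 replicate 1, 8 without replicate 2 and 2 without replicate 3, and 2 without day 10 replicate 1 or 3. With sex as a term the median was 0.81 and no gene was called.

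Genes of new muscle fibres went the other way in the same wounds. Mymk (myomaker), which fuses myoblasts, was at 0.0551, 0.055 and 0.0609 CPM in intact skin and at 13.1, 4.38 and 7.69 CPM on day 10 (7.12 ± 1.74, adjusted p = 0.00509). Myh3, the embryonic myosin, was at 0.193, 2.53 and 0.457 CPM and 45.4, 31.4 and 36.2 CPM (5.14 ± 1.79, adjusted p = 0.0335). In both, every wound library lay above every intact one. In all, 4 of 10 muscle regeneration genes rose (background 16.3%) and none fell. Those 4 were Mymk, Mymx, Chrng and Myh3, and Mymk, Chrng and Myh3 were also called with sex as a term. Myod1 and Pax7, which mark myoblasts and satellite cells, differed by -2.47 ± 1.37 and -1.68 ± 1.14 without passing. The Myh3 call was lost without day 0 replicate 1 or 3 or day 10 replicate 1 or 3 (adjusted p = 0.0503 to 0.104).

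Sebaceous gland genes had a median of -3.68, and 6 of 12 fell. Scd1, the desaturase that makes the monounsaturated fatty acids of sebum and fat, was at 6167, 9517 and 2453 CPM in intact skin and 234, 102 and 124 CPM in wounds (-5.30 ± 1.21, adjusted p = 0.00317). Mc5r, the melanocortin receptor of sebocytes, was at 10.2, 11.2 and 9.83 CPM and 0.853, 0.299 and 0.403 CPM (-4.32 ± 1.02, adjusted p = 0.00407). Wounds and intact skin did not overlap for either gene. Scd3 (-5.25 ± 1.14), Fasn (-4.23 ± 0.77) and Dgat2 (-6.03 ± 1.30), lipid synthesis enzymes also used by fat cells, and Cidea (-4.05 ± 1.15), a droplet protein, were the others, and Cidea lost its call without day 10 replicate 2 (adjusted p = 0.0501). Elovl3, a fatty acid elongase of the gland, was at 33, 36.6 and 27.2 CPM and 6.83, 1.41 and 5.18 CPM and did not pass (adjusted p = 0.102). In a fit of the 6 libraries alone 11 of the 12 passed, and with sex as a term none did (median -2.64).

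Hair follicle genes of the permanent part of the follicle, where its stem cells sit, were lower as well: 9 of 18 fell and 1 rose, with a median of -1.47. Krt15, a keratin of bulge stem cells and basal keratinocytes, was at 1875, 1035 and 1929 CPM in intact skin and at 29.4, 15.7 and 20.7 CPM in wounds (-6.20 ± 1.67, adjusted p = 0.00894). Lgr6, a receptor on stem cells of the upper follicle, was at 41, 33 and 62.9 CPM and 2.01, 1.03 and 0.899 CPM (-5.12 ± 1.05, adjusted p = 0.00157). Fgf18, a growth factor of the resting follicle, was at 11.3, 12.7 and 18.9 CPM and 1.31, 1.17 and 0.558 CPM (-3.81 ± 0.67, adjusted p = 0.000505). For all 3 the lowest intact value was at least several times the highest wound value. The gene that rose was Cd34 (1.71 ± 0.42), which bulge cells share with vessels and fibroblasts. Lgr5, a receptor of bulge and germ cells, was at 17.2, 20.3 and 19.8 CPM and 96.4, 78.7 and 86.1 CPM, and its difference of 2.19 ± 0.94 did not pass (adjusted p = 0.0803). The falls numbered 4 without day 0 replicate 3 or without any 1 of the day 10 libraries, and with sex as a term no gene of the list was called (median -1.14).

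Genes of the growing hair shaft and root sheath were low in both groups, with a summed level of 16.8 to 37.3 CPM in intact skin and 16.9 to 36.4 CPM in wounds. Of 22, 2 rose and none fell: Shh, a signal of the hair germ, at 0.0551, 0.0275 and 0.0913 CPM and 2.71, 1.66 and 0.279 CPM, and Krt73, an inner root sheath keratin, at 0.0276, 0 and 0.0304 CPM and 2.83, 1.99 and 0.837 CPM. The call of Shh was lost without any day 0 library or day 10 replicate 1 (adjusted p = 0.0625 to 0.0796), and that of Krt73 was lost without any 1 of the 6 libraries (adjusted p = 0.0554 to 0.121). No melanocyte gene passed in either direction (0 of 10, unadjusted p under 0.05 for 0, and 0 with DESeq2). A fit of the 6 libraries alone called 2 of them lower and voom none.

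Basal keratinocyte and hemidesmosome genes, which anchor the epidermis to its basement membrane, fell in 9 of 17 cases and rose in none, with a median of -2.36. Trp63, the p63 transcription factor of basal keratinocytes, was at 463, 477 and 851 CPM in intact skin and at 36.5, 32.5 and 61.4 CPM in wounds (-3.78 ± 1.01, adjusted p = 0.00835). The hemidesmosome linker Dst was at 977, 812 and 827 CPM and 192, 159 and 158 CPM (-2.36 ± 0.35, adjusted p = 0.000117). Lamb3, a chain of laminin 332, was at 112, 134 and 164 CPM and 10.6, 13.2 and 16.9 CPM (-3.33 ± 0.79, adjusted p = 0.00404). Each of these was lower in every wound library than in any intact one. Plec (-1.41 ± 0.25), Itgb4 (-2.64 ± 0.86) and Col17a1 (-3.81 ± 1.27) are further parts of the same anchor, and the last was at 1033, 1030.2 and 1205 CPM and 70.3, 52.7 and 111 CPM. Krt14, the partner of Krt5, was at 1212, 1235 and 1378 CPM and 193, 553 and 458 CPM and did not pass (adjusted p = 0.318). Col7a1, the anchoring fibril collagen, was at 225, 133 and 185 CPM and 198, 249 and 323 CPM, with overlapping groups (0.50 ± 0.79, adjusted p = 0.651). The falls numbered 4 without day 0 replicate 3, 4 without day 10 replicate 1 or 2 and 5 without replicate 3, and 14 in a fit of the 6 libraries alone. With sex as a term none was called and the median was -1.13. Itgb4 lost its call without day 0 replicate 3 or day 10 replicate 1 or 2 (adjusted p = 0.0561 to 0.0852), and Col17a1 without day 0 replicate 3 or any day 10 library (adjusted p = 0.0553 to 0.0869).

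Of 26 genes of the cornifying layers, 6 fell and none rose, with a median of -1.70. That share of falls was near the 18.6% of all autosomal genes, and the median was -0.64 without day 0 replicate 2. Krt77, a suprabasal keratin of adult skin, stood at 23, 4.16 and 10.7 CPM in wounds (-6.45 ± 1.76, adjusted p = 0.00974). Sbsn (suprabasin), a suprabasal secreted protein, was at 299.7, 1667 and 399.5 CPM and 104, 121 and 115 CPM (-2.80 ± 0.62, adjusted p = 0.00276). Both had day 0 replicate 2 far above the other intact samples. The other falls were Lce1m (-4.36 ± 1.33), Cdsn (-2.71 ± 0.84), Dmkn (-2.50 ± 0.83) and Flg2 (-4.07 ± 1.38). Lce1m was not called without day 0 replicate 2 or day 10 replicate 2 or 3 (adjusted p = 0.0633 to 0.0818), Cdsn without day 0 replicate 2 or day 10 replicate 1 or 2 (adjusted p = 0.0611 to 0.119), Dmkn without day 0 replicate 2 or any day 10 library (adjusted p = 0.0696 to 0.208) and Flg2 without day 0 replicate 2 or any day 10 library (adjusted p = 0.0765 to 0.126). Without day 0 replicate 2, 2 of the list fell and 1 rose. Falls numbered 3 without day 10 replicate 1 or 3 and 2 without replicate 2, and 12 in a fit of the 6 libraries alone. No gene of this list, or of the barrier lipid list below, was called with sex as a term.

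Other genes of the same layers did not pass in either direction. Filaggrin, Flg, which bundles keratin in the granular layer, was at 14.7, 78.4 and 16.3 CPM in intact skin and 249, 195 and 547 CPM in wounds (3.18 ± 1.29, adjusted p = 0.0643). Loricrin, Lor, the main envelope protein, was at 76.3, 646 and 84.5 CPM and 63.5, 61.3 and 107 CPM (-1.80 ± 1.25, adjusted p = 0.274). Hornerin, Hrnr, was at 29.8, 162 and 23.9 CPM and 90.5, 37.4 and 87.3 CPM. None of these 3 passed, and the wounds lay above every intact sample for Flg alone. Rptn (repetin), a filaggrin-family protein of the same gene cluster, was among the 12 largest rises, from 0.248, 2.15 and 0.304 CPM to 192, 133 and 296 CPM (7.83 ± 1.64, adjusted p = 0.00183).

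Of 19 barrier lipid genes, 2 rose and 2 fell, no more than the background, with a median of -1.39 that was -0.61 without day 0 replicate 2. Ugcg, which makes glucosylceramide, was at 32.7, 100 and 34.4 CPM and 211, 253 and 329.7 CPM (2.25 ± 0.39, adjusted p = 0.000462), and Degs2, a sphingolipid hydroxylase, rose by 3.11 ± 0.74. Abhd5, an activator of barrier and fat lipases, fell by 1.39 ± 0.28, and Slc27a4, a fatty acid transporter, differed by -1.47 ± 0.49, a call lost without day 0 replicate 2 or 3 or any day 10 library (adjusted p = 0.0523 to 0.0883).

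Of 25 wound-induced epidermal genes, 7 rose, 1 fell and 17 did not pass, with a median of 1.51 that was 3.36 without day 0 replicate 2. Sprr1b, a small proline-rich envelope protein of stressed epidermis, was at 0.138, 2.17 and 0.152 CPM in intact skin and 52.2, 73.8 and 90.2 CPM in wounds (6.44 ± 1.68, adjusted p = 0.00741). Slpi, a secreted protease inhibitor, was at 0.138, 0.743 and 0.152 CPM and 5.52, 9.93 and 11.2 CPM (4.67 ± 0.99, adjusted p = 0.00199). Both were higher in each wound than in any intact library. Krt6b, a keratin of activated keratinocytes, was at 9.84, 17.7 and 20.4 CPM and 130.0, 426 and 276 CPM (4.12 ± 1.41), a call lost without any day 0 library or day 10 replicate 2 (adjusted p = 0.0718 to 0.0955). Krt6b shares 50.1% of its 50-base windows with other genes, chiefly Krt6a, so the split of reads between them is uncertain. Krt16 was at 8.51, 251 and 17.8 CPM and 139, 447 and 416 CPM, with day 0 replicate 2 inside the range of the wounds, and did not pass (adjusted p = 0.332). Itgb6, part of a migration receptor of keratinocytes, fell by 2.54 ± 0.60. Calls numbered 4 higher without day 0 replicate 1 and 3 without replicate 3, and no gene was called with sex as a term.

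Nerve-associated genes gave calls in both directions. Of 13 Schwann cell genes, 5 fell (background 18.6%) and 2 rose, the latter near the 16.3% of all autosomal genes called higher. The list median was -1.47, or -0.75 without day 0 replicate 2, and omitting 1 library left 3 or 4 falls. Mbp, myelin basic protein, was at 63.5, 69.5 and 64.7 CPM in intact skin and 17.2, 19.6 and 10.2 CPM in wounds (-2.07 ± 0.41, adjusted p = 0.0012), and Prx, periaxin of myelinating cells, fell by 1.94 ± 0.49. Ncam1, an adhesion molecule of Schwann cells without myelin and of regenerating muscle, was at 4.13, 5.48 and 3.96 CPM and 83.1, 80.6 and 96.5 CPM (4.26 ± 0.52, adjusted p = 2.07e-05). Gap43, of growing axons and repair Schwann cells, was at 0.413, 0.248 and 0.0609 CPM and 8.66, 5.11 and 7.01 CPM (4.81 ± 0.62, adjusted p = 3.74e-05). The last 2 were also called with sex as a term. Mag, a myelin adhesion protein, and S100b, a calcium-binding protein of Schwann cells, were also among the falls. Mag lost its call without any day 0 library or day 10 replicate 1 or 3 (adjusted p = 0.0545 to 0.135) and S100b without day 0 replicate 1 or 2 or day 10 replicate 1 or 2 (adjusted p = 0.0817 to 0.122).

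Collagen genes stood out on the other side. Of 16 genes of the collagen list, fibrillar, fibril-associated and others such as Col6a1, 15 rose and none fell (background 16.3%), with a median of 3.59. Col1a1, the main chain of type I collagen, was at 416, 707 and 171 CPM in intact skin and 17462, 17443 and 18526 CPM in wounds (5.37 ± 0.55, adjusted p = 4.51e-06). Col3a1, the type III chain abundant in early scar, was at 882, 1949 and 372 CPM and 31855, 33952 and 28530.5 CPM (4.88 ± 0.56, adjusted p = 1.28e-05). The 3 wounds were close to each other for both, and the intact samples varied more in proportion. Col12a1 (4.70 ± 0.56), which coats fibrils under tension, Col8a1 (5.15 ± 0.62), Col24a1 (5.48 ± 0.58) and Col11a1 (4.95 ± 1.25), a fibril chain best known from cartilage, rose as far. The lone member that did not pass was Col5a3 (0.98 ± 0.43, adjusted p = 0.0836). Omitting 1 library left 14 or 15 called, and 12 were called with sex as a term.

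Enzymes that modify and cross-link collagen were higher too, 16 of 20 with none lower and a median of 1.85. P4ha3, a prolyl hydroxylase subunit, was at 0.138, 0.771 and 0.122 CPM in intact skin and 34.9, 43.4 and 45.5 CPM in wounds (6.88 ± 0.62, adjusted p = 1.43e-06). Loxl2, a lysyl oxidase, was at 34.5, 67.9 and 18.8 CPM and 567, 938 and 569 CPM (4.10 ± 0.44, adjusted p = 7.17e-06). Plod2, the lysyl hydroxylase of the cross-links typical of scars, was at 4.82, 7.27 and 8.8 CPM and 92.5, 133 and 112 CPM (4.01 ± 0.63, adjusted p = 0.000199). No wound overlapped with intact skin in these. P4ha1, Adamts14, Plod3 and Loxl4 did not pass.

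Elastic fibre genes rose in 8 of 10 cases with a median of 3.33 (3.97 without day 0 replicate 2), among them Efemp2 (3.82 ± 0.40) and Fbln5 (2.24 ± 0.34), assembly proteins, and Fbn1 (3.26 ± 0.67), the microfibril core. Elastin itself, Eln, was at 74.4, 108 and 27.1 CPM and 102, 84 and 88.2 CPM, with overlapping groups (0.39 ± 0.74, adjusted p = 0.714). Ltbp4, a TGF-beta binding protein that aids elastin assembly, was at 77.9, 76.7 and 70 CPM and 18.5, 19.7 and 21.1 CPM (-1.92 ± 0.69), a call lost without any 1 of the 6 libraries (adjusted p = 0.0721 to 0.108).

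Myofibroblast and provisional matrix genes rose in 16 of 24 cases and fell in 1, with a median of 2.20. Cthrc1, a secreted protein of matrix-making fibroblasts, was at 2.07, 3.94 and 0.913 CPM in intact skin and 570.5, 561 and 673 CPM in wounds (8.02 ± 0.66, adjusted p = 6.68e-07). Lrrc15, a surface protein of activated fibroblasts, was at 0.799, 2.2 and 0.761 CPM and 524, 757 and 693 CPM (9.03 ± 1.47, adjusted p = 0.000273). Tenascin C, Tnc, a matrix protein of healing tissue, was at 8.43, 21.2 and 9.19 CPM and 1537, 1322 and 1599.7 CPM (6.84 ± 0.92, adjusted p = 5.2e-05). For these 3 genes each wound was far above every intact sample. Periostin, Postn, was already at 447, 622 and 510.1 CPM in intact skin and at 14763, 11731 and 8889 CPM in wounds (4.49 ± 0.47). The contractile gene Acta2, smooth muscle actin, which vessels and hair muscles also express, was at 106, 163 and 58.9 CPM and 259.6, 288 and 335 CPM (1.43 ± 0.46, adjusted p = 0.0243), a call lost without day 0 replicate 1 or 3 or day 10 replicate 3 (adjusted p = 0.0547 to 0.0887). Comp, the member that fell, was at 0.771, 1.21 and 0.335 CPM and 0.122, 0.272 and 0.248 CPM and lost its call without day 0 replicate 1 or 2 or any day 10 library (adjusted p = 0.0527 to 0.156).

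Genes of resting dermal fibroblasts were mixed: 11 of 21 rose and 2 fell. Lum (lumican) and Dcn (decorin), which space collagen fibrils, rose by 3.78 ± 0.44 and 2.18 ± 0.38. Gsn (gelsolin), an actin-severing protein, was at 2121, 3141 and 1040.0 CPM and 313, 297 and 213 CPM (-2.93 ± 0.65, adjusted p = 0.00271). Rises numbered 6 without day 0 replicate 1 or 3, and Abca8a, the other fall, lost its call without day 0 replicate 1 or 2 or any day 10 library (adjusted p = 0.0754 to 0.128).

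Matrix proteinases and their inhibitors rose in 15 of 23 cases and fell in 1, with a median of 2.83 (3.41 without day 0 replicate 2). Mmp13 (collagenase 3), which cuts fibrillar collagen, was at 0.358, 2.06 and 0.396 CPM in intact skin and 182, 224 and 378 CPM in wounds (8.11 ± 1.06, adjusted p = 3.98e-05). Mmp10 (stromelysin 2), made at the migrating epidermal edge, was at 0.11, 0.0826 and 0.0913 CPM and 12.2, 10.7 and 13.6 CPM (6.96 ± 1.52, adjusted p = 0.00241). Mmp3 (stromelysin 1), typical of wound fibroblasts, was at 25.7, 60 and 15.1 CPM and 323, 551 and 432 CPM (3.70 ± 0.64, adjusted p = 0.000473). All wounds lay above all intact samples for the 3. Mmp14 (3.57 ± 0.29), the membrane-bound activator, Mmp2 (3.23 ± 0.58), its substrate, and Plat (4.11 ± 0.40), a plasminogen activator, rose as well. Timp3, an inhibitor held in the matrix, was at 123, 243 and 162 CPM and 37.9, 95.5 and 50.5 CPM (-1.52 ± 0.46), a call lost without day 0 replicate 2 or day 10 replicate 1 or 3 (adjusted p = 0.0682 to 0.0843). Mmp12, the macrophage elastase, overlapped between the groups (85.3, 252 and 37.3 and 142, 155 and 157 CPM).

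The AP-1 site, TGACTCA or its reverse complement TGAGTCA, is the classic control element of several of these proteinase promoters. In RefSeq promoter windows of 300 bases (build GRCm38.p6, another build than that of the counts), it was present in 5.20% of 32851 windows and, by gene, in 5.95% of 27025 genes. Of the 23 proteinase list genes 16 had a window, and 7 of the 16 held the site: Mmp1a, Mmp1b, Mmp3, Mmp10, Mmp12, Mmp13 and Plaur. Of these 7, Mmp1a and Mmp12 did not pass the test, and Mmp1b, at 0, 0.0275 and 0 CPM in intact skin and 0.152, 0.544 and 1.02 CPM in wounds, lost its call without any day 0 library or day 10 replicate 2 or 3 (adjusted p = 0.0605 to 0.105). Lrrc15 was the only one of 13 myofibroblast list genes with a window to hold it, and Col6a1 the only one of 12 collagens. On the adipocyte list, whose genes fell, 1 of 14 with a window held it. Mmp3, Mmp10 and Mmp13 lie close together on chromosome 9, so they are not separate instances to set against the share of all genes. The 110 bases before the annotated start of 3 proteinases that rose and of Lrrc15 follow, 5′ to 3′ on the gene's strand, with the AP-1 site in capitals. The stretches are chr9:7445712-7445821 (plus strand), chr9:7502232-7502341 (plus), chr9:7272404-7272513 (plus) and chr16:30283255-30283364 (minus), each upstream of the first exon. The site begins 46, 63, 35 and 53 bases before the start.
Mmp3: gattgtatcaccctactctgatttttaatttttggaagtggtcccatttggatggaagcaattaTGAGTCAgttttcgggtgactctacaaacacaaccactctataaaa
Mmp10: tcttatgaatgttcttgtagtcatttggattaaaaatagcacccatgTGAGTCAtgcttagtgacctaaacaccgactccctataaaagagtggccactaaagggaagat
Mmp13: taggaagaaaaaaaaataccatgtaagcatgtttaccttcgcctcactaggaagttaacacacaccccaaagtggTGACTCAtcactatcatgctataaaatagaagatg
Lrrc15: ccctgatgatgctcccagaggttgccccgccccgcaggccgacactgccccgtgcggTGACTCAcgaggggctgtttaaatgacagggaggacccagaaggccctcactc
A match of these letters is a description of the sequence and was not tested as a binding site.

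Among the 12 largest rises, Cxcl5, a neutrophil-attracting chemokine, came first, from 0.165, 0.165 and 0.0913 CPM in intact skin to 129, 108 and 659.7 CPM in wounds (11.01 ± 1.40, adjusted p = 3.15e-05). Prss35, a secreted serine protease-like protein, went from 0.606, 0.495 and 0.731 CPM to 788, 725 and 899 CPM (10.36 ± 1.38, adjusted p = 4.95e-05). Tnn (tenascin W), a matrix protein, rose by 7.35 ± 1.00 and Brinp3 by 8.65 ± 0.92. All 4 genes were low in intact skin, with Tnn the highest at 1.43, 3.14 and 1 CPM. Cstdc5 (9.32 ± 1.74), Stfa2 (8.59 ± 1.79) and Stfa1 (8.45 ± 1.58) code for stefin A cystatins, inhibitors of cysteine proteases in myeloid cells. Their single values are uncertain, because 22.5% of the 50-base windows of Stfa1 and 15.9% of those of Stfa2 occur in another gene. Lrrc15, Mmp13, Cthrc1, Rptn and S100a9 were the others of the 12.

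**Figure D3:**
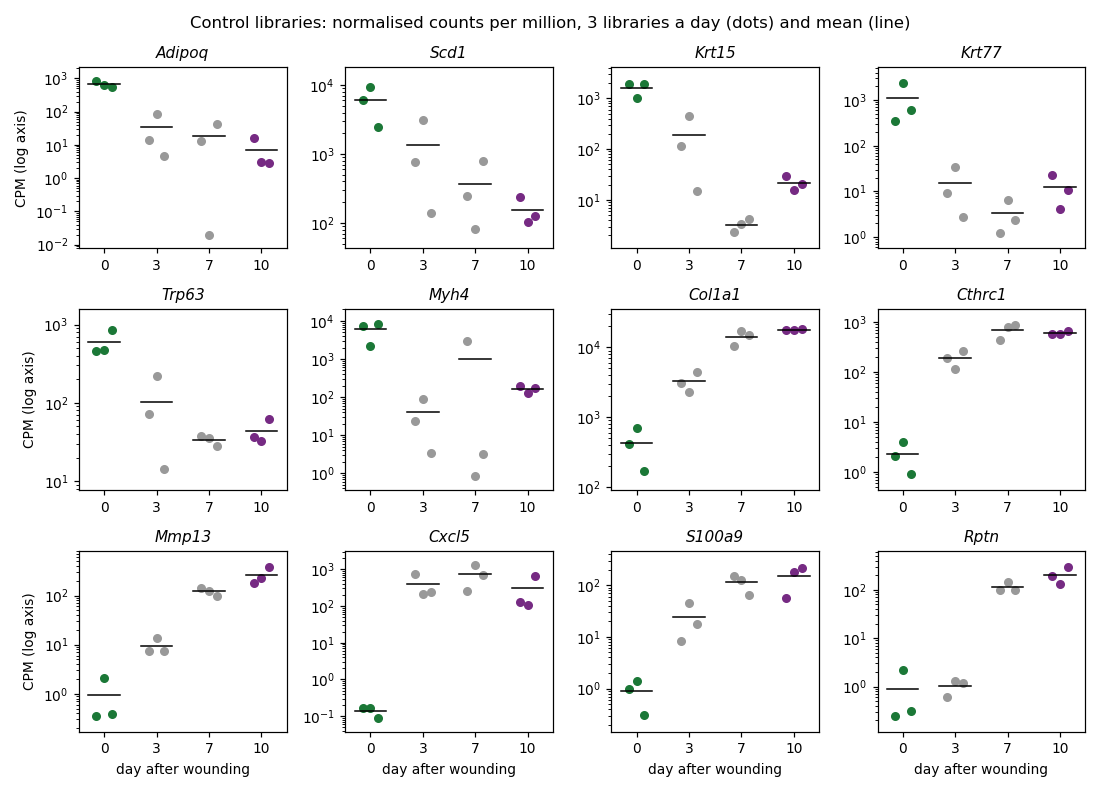
CPM (vertical, log axis) of 12 genes in the control libraries of days 0, 3, 7 and 10; dots are libraries, lines means, green intact skin, purple day 10. Genes of fat, glands, follicle, epidermis and muscle lie lower on day 10 than on day 0 and the wound genes higher, without overlap; a day 7 library with 0 counts of Adipoq is drawn at 0.02 CPM.

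Neutrophil genes rose in 14 of 20 cases and fell in 1, with a median of 3.67, or 3.39 with genes at 0 in intact skin set to their lower bound (3 counts over the group). S100a9, a subunit of calprotectin, was at 0.992, 1.4 and 0.304 CPM in intact skin and 55.6, 182 and 221 CPM in wounds (7.39 ± 1.07, adjusted p = 9.73e-05). Its partner S100a8 was at 39.1, 41.4 and 21.2 CPM and 192, 434 and 572 CPM (3.56 ± 0.89, adjusted p = 0.00564). Csf3r, the receptor of the neutrophil growth factor, was at 2.45, 5.56 and 2.13 CPM and 23, 31.8 and 30.3 CPM (3.07 ± 0.41, adjusted p = 5.35e-05). No wound overlapped with intact skin. Ly6g, a defining surface marker, was at 0, 0 and 0 CPM and 0, 0 and 0.062 CPM, and Il1r2, a decoy receptor also made by other skin cells, fell by 2.07 ± 0.51. Of the 14, 10 were also called with sex as a term.

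Monocyte and wound macrophage genes rose in 15 of 24 cases and none fell (median 2.10, or 3.02 without day 0 replicate 2), and 5 were called with sex as a term. Spp1 (osteopontin), a matrix protein and cytokine of wound macrophages, was at 4.55, 8.81 and 7.21 CPM in intact skin and 867, 1435 and 903 CPM in wounds (7.28 ± 0.45, adjusted p = 5.15e-08). Fcgr1, a high-affinity antibody receptor, was at 2.4, 5.86 and 2.16 CPM and 28.3, 38.5 and 20.8 CPM (3.07 ± 0.49, adjusted p = 0.000255). Arg1 (arginase) was at 25.9, 23.3 and 47.1 CPM and 96.4, 179 and 164 CPM (2.19 ± 0.62, adjusted p = 0.0114). The pan-macrophage genes Adgre1 and Csf1r overlapped between the groups and did not pass (adjusted p = 0.337 and 0.134), with the highest intact value in day 0 replicate 2 for each. Of 15 genes of resident-type macrophages, 5 rose and 1 fell, led by the mannose receptor Mrc1 (2.66 ± 0.43). Those 5 numbered 3 without day 0 replicate 1 and without day 10 replicate 1 or 2.

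Cytokines and chemokines rose in 11 of 34 cases and fell in 3, with a median of 1.76. The median was 3.21 without day 0 replicate 2 and 0.89 without day 10 replicate 3. Ccl8 (3.57 ± 0.48), Ccl12 (3.17 ± 0.59) and Ccl3 (4.68 ± 0.75), which attract monocytes, were higher in every wound. Interleukin 1 beta, Il1b, was at 0.441, 15.1 and 0.487 CPM in intact skin and 17.9, 7.34 and 68.3 CPM in wounds (2.54 ± 1.20, adjusted p = 0.108). Il6 was at 0.248, 10.3 and 0.365 CPM and 8.72, 3.43 and 149 CPM (adjusted p = 0.0954), and the neutrophil chemokine Cxcl2 at 0.386, 14.3 and 0.517 CPM and 12.6, 6.01 and 85.2 CPM (adjusted p = 0.135). None of these 3 passed, with a high intact sample in replicate 2 and a high wound in replicate 3. Tnf itself was at 0.496, 6.14 and 0.791 CPM and 1.04, 0.625 and 1.27 CPM (-1.34 ± 0.68, adjusted p = 0.132). Rises numbered 19 without day 0 replicate 2 and 8 without day 10 replicate 3, and falls 1 without it or without day 10 replicate 1 or 3. Ccl20 (-5.48 ± 1.42), an attractant of dendritic and T cells, Cxcl9 and Cxcl10, both induced by interferon gamma, were the falls. Ccl20 lost its call without day 0 replicate 2 (adjusted p = 0.128), Cxcl9 without day 0 replicate 1 or day 10 replicate 1 or 3 (adjusted p = 0.061 to 0.0768) and Cxcl10 without day 0 replicate 2 or day 10 replicate 1 or 3 (adjusted p = 0.0579 to 0.142).

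Acute phase and complement genes divided, 4 of 13 up and 4 down. Haptoglobin, Hp, which binds free haemoglobin and is made by fat cells, was at 2442, 2705 and 1038 CPM in intact skin and 48.7, 45.5 and 45.5 CPM in wounds (-5.47 ± 1.22, adjusted p = 0.00272). Orm1, orosomucoid, was at 145, 153 and 88.2 CPM and 3.41, 1.39 and 0.527 CPM (-6.18 ± 1.24, adjusted p = 0.00135). Serum amyloid Saa3 was at 18.6, 17.4 and 20.7 CPM and 345, 329 and 503 CPM (4.38 ± 1.19, adjusted p = 0.00975), the opposite direction. The complement proteases C1ra (2.24 ± 0.47) and C1s1 (1.83 ± 0.48) also rose. Adipocyte genes summed to 17416 to 23829.6 CPM over the intact libraries and 1326 to 1774 CPM over the wounds. Their part in the falls of Hp and Orm1 was not tested.

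Interferon response genes rose in 12 of 25 cases and fell in 1 (median 1.27). Isg15, a ubiquitin-like protein, was at 2.07, 2.15 and 3.01 CPM in intact skin and 6.68, 8.84 and 7.04 CPM in wounds (1.64 ± 0.47, adjusted p = 0.013), and Trim30a rose by 1.91 ± 0.50. The rises were small beside those of the matrix genes. They numbered 7 without day 0 replicate 1, 8 without replicate 2 and 6 without replicate 3 or without day 10 replicate 1 or 2, and none was called with sex as a term.

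Proliferation genes were modestly higher, 16 of 28 with none lower (median 1.07). Cdk1, the mitotic kinase, was at 15.1, 12.7 and 12.1 CPM in intact skin and 44.8, 52.2 and 52.2 CPM in wounds (1.90 ± 0.31, adjusted p = 0.000242). Mki67, a marker of cycling cells, was at 88.5, 78 and 72.7 CPM and 179, 187 and 141 CPM (1.09 ± 0.39, adjusted p = 0.0386), a call lost without any day 0 library or day 10 replicate 1 or 2 (adjusted p = 0.059 to 0.093). Wounds were above intact skin in each replicate for both. A fit of the 6 libraries alone called 25 of the list and the fit with sex as a term none.

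Growth factor genes rose in 8 of 22 cases (background 16.3%) and fell in 4, the latter near the 18.6% of all autosomal genes called lower. Midkine, Mdk, a heparin-binding growth factor, was at 1.46, 2.17 and 0.7 CPM in intact skin and 35.5, 28.2 and 28.3 CPM in wounds (4.40 ± 0.48, adjusted p = 7.17e-06). Bmp2, a bone morphogenetic protein of follicle and epidermis, was at 43.3, 56.8 and 66.9 CPM and 11.2, 4.79 and 7.1 CPM (-2.86 ± 0.37, adjusted p = 3.85e-05). Igf1, Wnt5a, Tgfb2, Tgfb3 and Inhba, the activin A chain, were other rises (2.17, 2.12, 1.50, 1.71 and 4.45). Bmp4, Wnt7b, which basal keratinocytes make, and Fgf10, which dermal cells make, were the other falls (-2.02, -4.56 and -3.53), and Fgf10 lost its call without day 10 replicate 1 or 3 (adjusted p = 0.0554 to 0.0616). Mdk, Bmp2, Bmp4 and Tgfb3 were also called with sex as a term.

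Vessel genes differed by list. None of 17 endothelial genes passed (unadjusted p under 0.05 for 3, and 1 higher with DESeq2), although 10 of the 17 had every wound above every intact library (background 25.2%). A fit of the 6 libraries alone called 6 higher and 1 lower, and voom 3 higher. Pecam1, an adhesion molecule of all endothelium, was at 75.9, 98.5 and 36.3 CPM and 92.4, 135 and 119 CPM. Of 15 sprouting genes, 6 rose (background 16.3%), led by Cxcr4 (2.38 ± 0.30), a chemokine receptor, and Esm1 (3.60 ± 0.68), a product of tip cells. They numbered 4 without day 0 replicate 1 or 3 or day 10 replicate 2. Of 6 lymphatic genes Pdpn and Lyve1 rose, both of which fibroblasts or macrophages also make, whereas Prox1, the defining factor, was at 1.21, 4.62 and 0.7 CPM and 5.24, 3.89 and 7.41 CPM and did not pass (adjusted p = 0.137). None of 6 red cell genes passed (unadjusted p under 0.05 for 0, and 0 with DESeq2), whereas a fit of the 6 libraries alone and voom each called 4 lower.

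Immune cells of intact skin gave few calls, to be read beside the 16.3% of all autosomal genes called higher and the 18.6% called lower. Mrgprb2, a receptor of connective tissue mast cells, was at 15.7, 24.5 and 15 CPM in intact skin and 0.945, 0.625 and 1.67 CPM in wounds (-4.09 ± 0.94, adjusted p = 0.00337). It was 1 of 3 falls among 13 mast cell genes (background 18.6%), with a list median of -1.97. Without day 0 replicate 2 the median was -0.48, and 1 fall was left without day 0 replicate 1 or 2 or any day 10 library. Cpa3, mast cell carboxypeptidase, was at 12.1, 66.5 and 3.65 CPM and 6, 5.25 and 5.12 CPM and overlapped (adjusted p = 0.148), with the highest value again in day 0 replicate 2. The call of Mcpt4 was lost without day 0 replicate 1 or 2 or any day 10 library (adjusted p = 0.0505 to 0.236), and that of Mrgprb1 was lost without day 0 replicate 1 or 2 or any day 10 library (adjusted p = 0.0521 to 0.138). Il1rl1, the receptor of interleukin 33, which regulatory T cells and other cells also carry, rose by 3.53 ± 0.81. Of 14 Langerhans and dendritic cell genes, 1 rose (Ccr7, a homing receptor, 1.47 ± 0.55, adjusted p = 0.0474, lost without day 0 replicate 1 or 3 or any day 10 library (adjusted p = 0.05 to 0.157)) and 1 fell, and without day 0 replicate 2 there were 3 rises and no fall. The fall was that of langerin, Cd207, a lectin of Langerhans cells, at 3.64, 38.6 and 4.87 CPM and 1.16, 0.381 and 0.713 CPM (-4.38 ± 1.43), a call lost without day 0 replicate 2 or any day 10 library (adjusted p = 0.0561 to 0.168). T cell genes summed to 16.4 to 65 CPM in intact skin and 22.8 to 35.2 CPM in wounds. Of 17, 3 were higher, near the background share, and 1 lower, with 1 higher without day 0 replicate 1 or 3 or day 10 replicate 1 or 2. B cell genes gave 1 rise of 7, and none without day 0 replicate 1 or 3.

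Some heat shock and clock genes were lower in wounds. Hspa1a, an inducible chaperone, was at 21.2, 167 and 407 CPM in intact skin and 3.54, 4.81 and 3.57 CPM in wounds (-5.64 ± 1.21, adjusted p = 0.0022). Its intact values spanned a wide range, and 60.3% of its 50-base windows occur in another gene, chiefly Hspa1b. In all 7 of 17 immediate early and heat shock genes fell (background 18.6%), with a median of -1.47. Without day 0 replicate 2 the median was -0.24, with 5 genes lower and 1 higher. Of 15 clock genes 6 fell and none rose: Per1 was at 78.3, 149.8 and 86.4 CPM and 19.4, 38.4 and 31.3 CPM (-1.82 ± 0.46, adjusted p = 0.00643), and Arntl, the core activator, at 42.7, 50.8 and 53 CPM and 25.5, 26.8 and 24.2 CPM (-0.94 ± 0.22, adjusted p = 0.00424). No gene of the heat shock, clock, glycolysis, acute phase or mast cell list was called with sex as a term. No label states the hour of sampling, and its part was not tested. Of 21 glycolysis genes 7 fell, including Ldha, lactate dehydrogenase (-1.61 ± 0.28), Gapdh (-1.62 ± 0.37) and Pfkfb3 (-2.27 ± 0.45). Ldha and Gapdh ran highest in the intact libraries that were highest in Myh4, replicates 1 and 3, and the part of muscle in these falls was not tested.

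**Figure D4:**
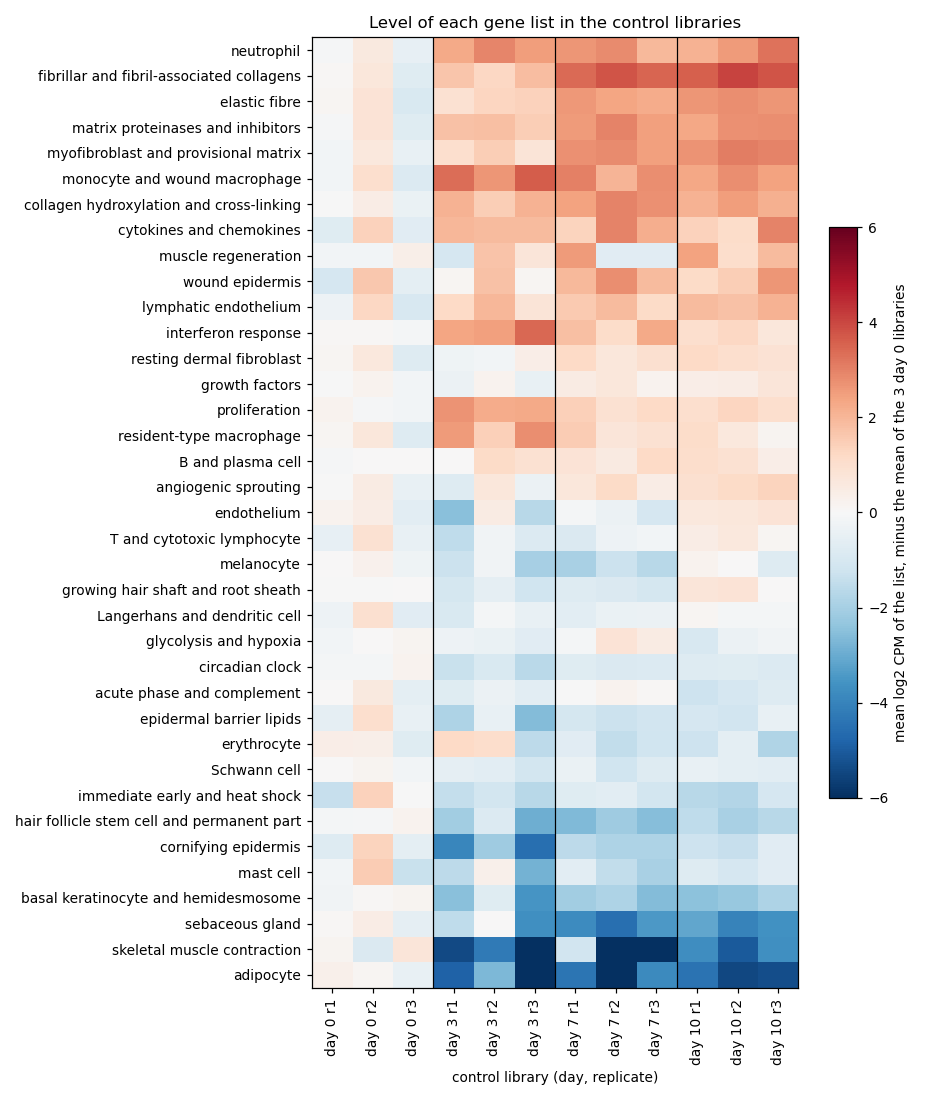
Mean log2 CPM of each gene list (rows, ordered by the median difference of day 10 against day 0) in the 12 control libraries (columns), minus the mean of the 3 day 0 libraries; colours end at 6 in either direction. Lists at the bottom are below the intact level in all 3 day 10 libraries and those at the top above it. Day 0 replicate 2 is the reddest intact library for cornifying epidermis, barrier lipid, wound epidermis, mast cell and immediate early genes, but not for basal keratinocyte genes.

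The persistence of each difference was read against the earlier control wounds, which share the day 10 libraries with the main comparison. The day 3 libraries carry the same numbers and name series as those of day 0. Time, sex and library series cannot be told apart against day 3 either, and that comparison had no fit with sex as a term. Against day 3, whose libraries were female like those of day 0, 2334 autosomal genes (10.8%) differed, 1027 (4.77%) higher and 1307 (6.07%) lower on day 10. Matrix lists differed in this: 14 of 16 collagens were higher on day 10 than on day 3 (median 2.17) and 11 of 24 myofibroblast genes (background 4.77%). The same held for 5 of 23 proteinases (median 0.82), 3 of 10 elastic fibre genes (median 0.95) and 3 of 20 cross-linking genes (median 0.32). Col1a1 had a mean of 3259.9 CPM on day 3, 14052 CPM on day 7 and 17810.0 CPM on day 10. Mmp13 went from 9.49 over 122 to 261 CPM, a log2 difference of day 10 against day 3 of 4.78 ± 0.90 (adjusted p = 0.004). Mfap4, a microfibril protein, was at 5.36 CPM on day 3, below its intact mean of 18.4 CPM, and at 258 CPM on day 10 (5.58 ± 1.00 against day 3).

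Some early wound lists were lower on day 10 than on day 3, and others were not. Of 25 interferon response genes 18 were lower on day 10 than on day 3 (median -1.92), of 28 proliferation genes 20 (median -1.30), of 15 resident-type macrophage genes 7 and of 24 monocyte and wound macrophage genes 5, with 1 higher (background 6.07% lower). By contrast, 2 of 34 cytokine and chemokine genes were lower (median 0.27), 2 of 20 neutrophil genes were lower (median -0.23), and of 25 wound epidermis genes none was lower and 1 higher (median 1.03). Isg15 stood at 37.6 CPM on day 3, 17.4 CPM on day 7 and 7.52 CPM on day 10, against 2.41 CPM in intact skin. Il1rl1 was at 829.6, 317 and 96.3 CPM on the 3 wound days. Both were thus between the early wound and the intact level. The count of calls against day 3 rested on single libraries: it was 600 without day 3 replicate 1, 862 without day 10 replicate 1, 795 without day 10 replicate 3 and 1448 without day 3 replicate 3.

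Lists of intact skin also differed. None of the 21 adipocyte, 23 skeletal muscle or 12 sebaceous gland genes was higher on day 10 than on day 3, whereas 4 of 21 resting dermal fibroblast genes were (background 4.77%), and of the cornifying epidermis 3 of 26 were (Flg, Hrnr and Asprv1, the last 2 at adjusted p = 0.0499 and 0.0262). Adipoq had means of 34.2, 18.5 and 7.27 CPM on days 3, 7 and 10 and Krt15 of 191, 3.29 and 21.9 CPM. These means cover a wide spread: Adipoq was at 14.1, 83.9 and 4.73 CPM on day 3 and at 13.3, 0 and 42.3 CPM on day 7. Krt15 was also highest in replicate 2 on day 3, at 113, 444 and 15.3 CPM. Neither gene passed against day 3 (adjusted p = 0.348 and 0.169). Flg had means of 5.48, 149 and 330.1 CPM against 36.5 CPM in intact skin (5.91 ± 1.47 for day 10 against day 3, adjusted p = 0.0176). Against day 7, of the same sex and numbering series, edgeR called 0 genes at an adjusted p under 0.05, 1101 had an unadjusted p under 0.05, and DESeq2 called 24.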

How the data were processed

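Total RNA from 8 mm skin punches was made into libraries with a stranded SMARTer Pico kit for total RNA and sequenced as single 50-base reads on a NextSeq500, per the labels' protocols. The authors deposited 1 table of raw counts per gene symbol for 23 libraries; the submitters' processing notes name STAR, with no version, and the build GRCm39. For the counting tool and its use of strand, the sources used here give nothing. Reads of near-identical or overlapping genes can therefore be misassigned. Replicates are labelled as biological replicates, and no 2 libraries within control day 0 or within control day 10 held identical values. Library totals of 33080930 to 37480787 limit precision for genes of a few counts.

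Genes with enough counts in the smallest group were kept (edgeR's filterByExpr, minimum count 10, total 15; 23083 of 56379). Counts were scaled by TMM and fitted in edgeR 4.0.16 (R 4.3.3) with a quasi-likelihood model holding 1 mean per group over all 23 libraries, and p-values were adjusted by Benjamini-Hochberg over all tested genes (threshold 0.05). Autosomal genes are reported. The SE is the log2 difference divided by the root of the F statistic. The fit was tested on simulated data: of 50 changed genes per size among 23083, it recovered 24% at a log2 change of 1, 66% at 2, 86% at 3 and 94% at 4, with 9 false calls among 144. The changed genes were drawn from well-counted genes, and all other genes were set equal between the 2 groups. With so few changed genes the adjusted threshold was stricter than in the data, where 7503 autosomal genes were called. The recovered shares are therefore not the power of the comparison itself.

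The comparison and the gene lists were chosen with earlier results of these data known. The text names the 12 largest differences in each direction (called autosomal genes whose mean log2 CPM reached 1, whose groups did not overlap and which have more than a clone or model number for a name), up to 4 genes of each list by smallest p, and a fixed list of 30 genes; other genes of the lists were added after their values were seen. Alternatives were DESeq2 1.42.0, limma 3.58.1 (voom with quality weights), other scalings, filters and models, and leaving out each library.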

Additional observations from a re-analysis of the deposited data

How the results depend on the processing

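The numbers of genes higher and lower in day 10 wounds than in intact skin stayed within 1.5 times of the reported ones under DESeq2, RLE size factors, both other filters, a fit of the 2 groups alone, removal of mitochondrial genes and voom with quality weights. Tested against a log2 difference of 1 (glmTreat), 2404 genes were called, 1138 higher and 1266 lower. With sex as a term 593 were called, 517 higher and 76 lower, so that 87.2% of calls were higher against 46.7%. Leaving out 1 library gave 5533 to 6559 calls, 2741 to 3341 higher and 2669 to 3218 lower. Against day 3, DESeq2 called 3538 genes, 1729 of them higher, and leaving out 1 library gave 600 to 2834 calls, 329 to 1302 higher and 241 to 1532 lower. Against day 7, DESeq2 called 24 genes, 15 higher and 9 lower.

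Same-numbered libraries of day 10 and day 0 had correlations of their deviations of 0.148, 0.160 and 0.0708. Each day 10 library correlated best with its own number, but the groups are different animals and the numbers were not taken to pair them. With the replicate block, 4030 genes were higher and 4380 lower; against day 3 the block left 93 calls, 90 higher and 3 lower. Among 191 genes named in the text, the direction of called genes reversed in 3 cases, all with sex as a term: Abca8a at 0.11, Pck1 at 2.11 and Timp3 at 0.20. Of 157 named genes called, 113 were no longer called with that term. The cause of these changes was not tested. At this depth, genes of a few counts, such as those of T cells and the growing hair, give uncertain folds.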
